A study of Mus musculus with 7 samples.

Results

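The genes described here are 10 genes of growth hormone signalling in liver, out of 21418 autosomal protein-coding genes: the receptor Ghr, the kinase Jak2, the transducers Stat5a and Stat5b, the transcriptional repressors Bcl6 and Cux2, the secreted products Igf1 and Igfals, and the feedback inhibitors Socs2 and Cish. They were taken for their place in the pathway and not by a value in the peak lists. Earlier results of these data were known when the genes were chosen. Each gene was taken with 50 kb of sequence on either side, and the neighbours Stat5a and Stat5b were taken as a joint span, which gave 9 spans of 1668.66 kb in all. Every CTCF and Rad21 peak that overlapped a span was then listed. The spans held 161 of the 68656 peaks of the Rad21 list and 138 of the 68667 peaks of the CTCF list.

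The peaks came from ChIP-seq, the sequencing of DNA that is precipitated with an antibody to a chromatin protein, on nuclei of whole liver from female CD-1 mice, strain Crl:CD1(ICR), aged 8 weeks. There were 4 libraries with a Millipore antibody to CTCF, the DNA-binding protein that marks loop anchors, and 3 libraries with an Abcam antibody to Rad21, a subunit of the cohesin ring that holds loops together. The libraries of each antibody were pooled before peak calling, so the lists carry no spread between mice, and no test between groups was possible. The labels name no treatment. The mice were outbred and all female, whole liver mixes hepatocytes with other cell types that cannot be told apart here, and peak lists carry no expression values with which to check the tissue label.

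Growth hormone from the pituitary binds its receptor on hepatocytes, and the kinase JAK2, which is bound to the receptor, then phosphorylates STAT5. Phosphorylated STAT5 enters the nucleus, binds DNA and activates Igf1, Igfals and the inhibitors Socs2 and Cish, which in turn restrain the signal. The timing of the hormone differs between male and female rodents, and through STAT5, BCL6 and CUX2 it sets the sex differences in gene expression of the liver. Cohesin is found both at sites shared with CTCF, many of which anchor loops, and at sites without CTCF, many of which are enhancers and promoters.

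Peaks were classed by overlap of at least 1 bp. A shared peak is called CAC (cohesin-and-CTCF), a Rad21 peak without a CTCF peak CNC (cohesin-non-CTCF), and a CTCF peak without a Rad21 peak Lone CTCF. Peak strength is given as the fold enrichment at the summit over local background and is compared only within a list.

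The sequences below are the best match to the CTCF motif among the shared peaks of each span. They are from mm9 and are written 5′ to 3′ on the strand given, and capitals mark the 20 bp match to the motif matrix.
Ghr, chr15:3227585-3227614, minus strand, intron of Sepp1, CTCF fold 6.60: cccttAGGCCAGAAGAGGGCACTGGgtccc
Jak2, chr19:29430231-29430260, minus strand, intron of 5033414D02Rik, CTCF fold 16.02: acctgCGTCCAGAAGGGGGCGCTGGtgcat
Stat5a and Stat5b, chr11:100754929-100754958, plus strand, exon of Stat3, CTCF fold 26.1: gccagTGGCCAGCAGGTGGAGCAAGtgata
Bcl6, chr16:23953970-23953999, minus strand, intergenic, CTCF fold 19.1: gagaaTGGCCACAAGGTGGCAGTGTaggac
Cux2, chr5:122293002-122293031, minus strand, intergenic, CTCF fold 19.7: gcccaTGACCAGCAGAGGGCGCGCGagcct
Igf1, chr10:87317342-87317371, plus strand, intergenic, CTCF fold 18.1: ccaaaTGCCCACAAGAGGGCGCGCTtttct
Igfals, chr17:25040246-25040275, plus strand, exon of Mapk8ip3, CTCF fold 11.1: gtcctTCTCCACCAGAGGGCGGCAGtacac
Socs2, chr10:94891692-94891721, minus strand, intergenic, CTCF fold 2.41: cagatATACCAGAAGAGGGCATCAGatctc
Cish, chr9:107238420-107238449, minus strand, exon of Hemk1, CTCF fold 17.9: ccagaCTTCCTCCAGGGGGCGCTCGggccc

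The next sequences hold TTCNNNGAA, the palindromic core bound by STAT5 and BCL6, near the summit of a cohesin-only peak. They are on the plus strand of mm9, and capitals mark the 9 bp match. The Igf1 peak was chosen after its values were seen and the others by their place or strength in the span.
Igf1 intron, chr10:87325718-87325746, 7 bp from the summit of a peak of Rad21 fold 2.93: cttaggggccTTCCTGGAAgaaagtacac
Socs2 exon, chr10:94848548-94848576, 2 bp from the summit of a peak of fold 3.53: tgtcacagaaTTCCTTGAAcaaaattaaa
Cux2 intron, chr5:122450725-122450753, 130 bp from the summit of a peak of fold 3.802: cgggcagagcTTCAGAGAAgcagccccca
Igfals intron, chr17:25015108-25015136, 131 bp from the summit of a peak of fold 2.18: ctgccaggtgTTCCTAGAAgaggccctgg
Upstream of Igfals, chr17:25003152-25003180, 120 bp from the summit of a peak of fold 3.03: gagacagtgcTTCAGGGAAacaagaaaaa

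Cohesin-only peaks were frequent around these genes. Of the 161 Rad21 peaks in the spans, 70 were CNC and 91 were CAC, so that cohesin-only peaks made up 43.5% (95% Wilson interval 36.1 to 51.2%, for counting error only). On all autosomes the share was 26.6%, and among the 59720 autosomal Rad21 peaks within 50 kb of a protein-coding gene it was 25.5%. With 1 span left out at a time the share stayed between 40.2% (without Ghr) and 45.7% (without Jak2). The difference was smaller among stronger peaks, where it lay within counting error. Among peaks with a −log10 q of at least 10 in both lists, 21 of 84 Rad21 peaks were CNC, or 25% (16.97 to 35.2%) against 19.5% on all autosomes, and at a fold enrichment of at least 5 in both lists the share was 20% of 55 peaks (11.6 to 32.4%) against 16.3%. Of the 21 and 11 peaks then classed as CNC, 6 under each rule were shared peaks whose weaker CTCF partner had been removed. On the CTCF side, 93 peaks were CAC and 45 were Lone CTCF, which made up 32.6% (25.4 to 40.8%), against 26.2% on all autosomes.

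**Figure D1:**
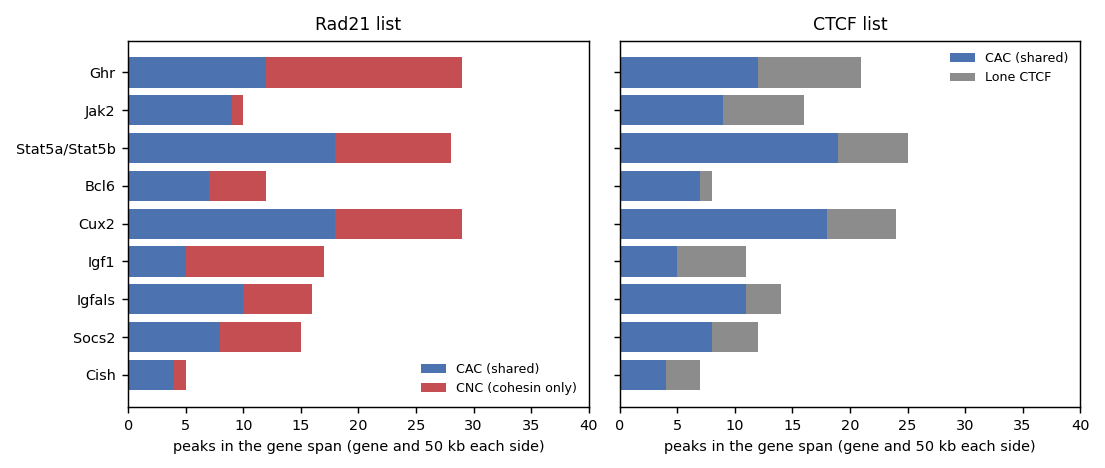
Peaks in each gene span (gene and 50 kb on either side), as stacked bars of peak counts, with the Rad21 list on the left and the CTCF list on the right. Cohesin-only peaks (red) outnumbered shared peaks (blue) at Ghr, 17 to 12, and at Igf1, 12 to 5, while Jak2 and Cish had 1 each.

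The genes differed widely in this. Igf1 had the highest CNC share, 70.6% of its 17 Rad21 peaks (46.9 to 86.7%), and Ghr was next with 58.6% of 29 (40.7 to 74.5%). Socs2 with 46.7% of 15 peaks, Bcl6 with 41.7% of 12, Cux2 with 37.9% of 29, Igfals with 37.5% of 16 and Stat5a-Stat5b with 35.7% of 28 lay in between, with intervals that overlapped one another. Cish, with 1 CNC peak of 5 (20%, 3.62 to 62.4%), and Jak2, with 1 of 10 (10%, 1.79 to 40.4%), were lowest. The intervals of Igf1 and Jak2 did not overlap, whereas those of Ghr and Igf1 did. The order of the genes changed with the rule. When a shared peak was instead required to have summits within 100 bp, Socs2 was highest, with 12 of 15 peaks CNC (80%, 54.8 to 93.0%), while Igf1 and Ghr kept 12 of 17 and 17 of 29. With a −log10 q of at least 10 in both lists Igf1 was highest with 3 of 5, followed by Socs2 with 4 of 8 and Stat5a-Stat5b with 6 of 15, while Ghr had 3 of 11. Of these CNC peaks 2 at Igf1, 1 at Socs2 and 3 at Stat5a-Stat5b were shared peaks that had lost a weaker CTCF partner. At a fold of at least 5 in both lists Socs2 had 2 of 4 and Igf1 had 0 of 2, too few to rank.

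Since the spans differ in length, the counts were also taken per 100 kb and ranked among the spans of all 21418 genes, as a description. The median gene had 0.752 CNC peaks per 100 kb, with quartiles of 0 and 1.82. Igf1 had 6.71, more than 99.5% of genes, followed by Igfals with 5.75, Socs2 with 5.31, Stat5a-Stat5b with 4.89, Ghr with 4.65, Bcl6 with 4.04 and Cux2 with 3.77, with 93.5% of genes below Cux2. Cish with 0.937 and Jak2 with 0.620 lay near the middle of all genes. Density and share did not always rank alike, because shared peaks were also dense in places. Igfals and Stat5a-Stat5b exceeded 96.4% and 92.7% of genes in shared CTCF peaks per 100 kb, whereas Igf1 and Ghr exceeded 37.2% and 43.3%.

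**Figure D2:**
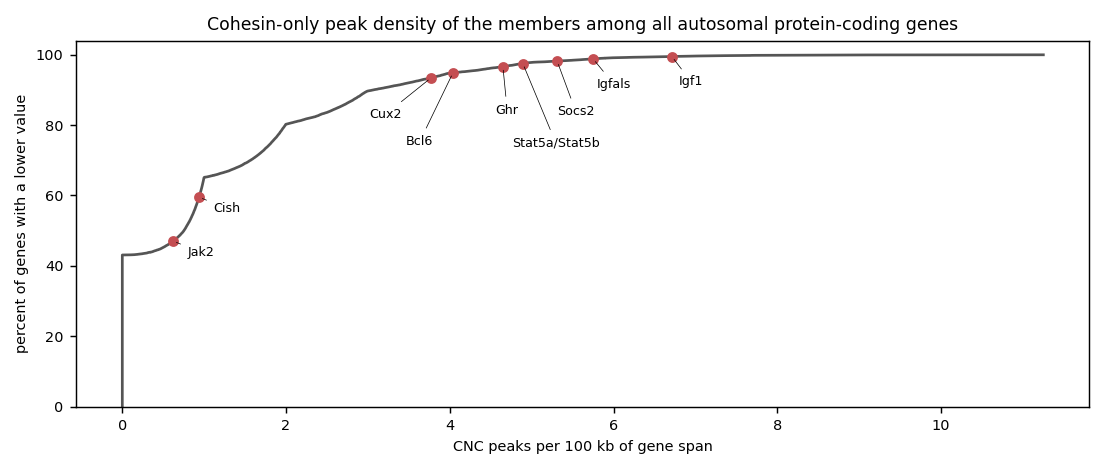
Cohesin-only (CNC) peaks per 100 kb of gene span on the x axis, against the percent of autosomal protein-coding genes with a lower value on the y axis. The grey line is all 21418 genes and the red points are the 9 member spans, of which 7 lie above the 75th percentile of 1.82 per 100 kb and 2, Jak2 and Cish, lie below it.

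Cohesin-only peaks were weaker than shared peaks at every gene. Their median Rad21 fold enrichment was 3.28 (2.95 to 3.48, 95% interval of the median), with a range of 1.90 to 7.46, and that of the shared Rad21 peaks was 5.70 (4.38 to 6.31), with a range of 2.27 to 24.4. The CNC median was below the CAC median in 9 of 9 spans, and 6 of the 70 CNC peaks exceeded the CAC median of their span. The same order held on all autosomes, where the medians were 3.48 and 6.14. A −log10 q of at least 10 was reached by 15 CNC peaks (21.4%) and 69 CAC peaks (75.8%), close to the 25.2% and 78.3% of all autosomes. CNC peaks were also narrower, with a median width of 312 bp against 452 bp.

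**Figure D3:**
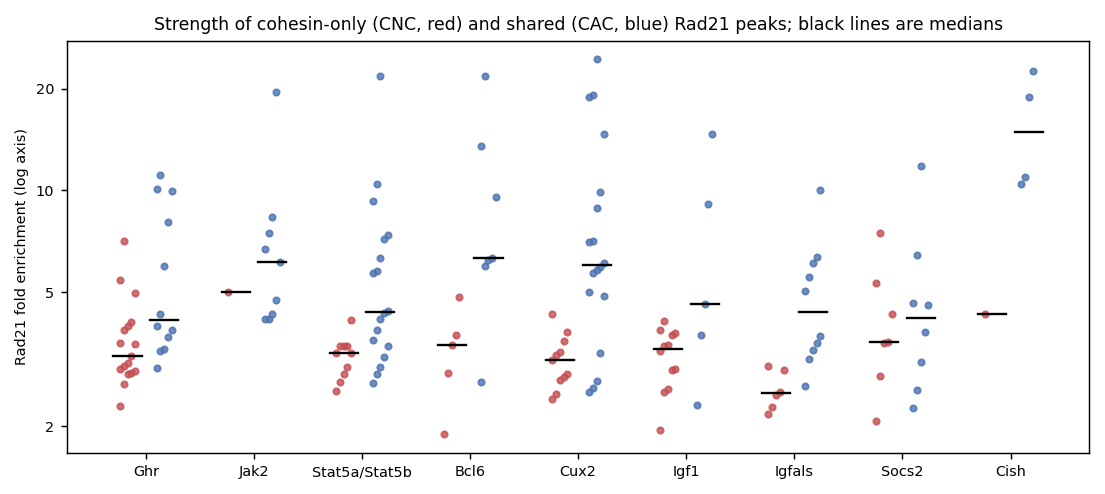
Rad21 fold enrichment at the summit (y, log axis) of each cohesin-only (red) and shared (blue) peak by gene span (x), with a black line at the median of each group. Shared peaks reached above 10 in all 9 spans, while the strongest cohesin-only peaks were 7.46 at Socs2 and 7.08 at Ghr.

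Ghr encodes the growth hormone receptor and lies on chr15:3267760-3533492, minus strand. Of its 17 CNC peaks, 12 were inside the gene and 11 of these were in introns. The strongest, at chr15:3414545-3415232, was 688 bp wide with a Rad21 fold of 7.08 and a −log10 q of 38.5, above 98.6% of all autosomal CNC peaks, and it lay 6847 bp downstream of an internal start site of the gene. A run of 4 weaker CNC peaks with folds between 2.86 and 3.53 followed it further into the gene, from 3399322 to 3405782. A further intronic CNC peak at 3461352-3461662 had a fold of 4.07. Shared peaks were stronger. The most upstream start site held a CAC peak of Rad21 fold 9.97 and CTCF fold 22.2 at its 5′ edge, a second CAC peak of 3.85 and, 220 bp inside an annotated start, a CNC peak of 2.68. The strongest shared peak, at 3391397-3391996 with Rad21 fold 11.1 and CTCF fold 18.1, lay in an intron. The nearest shared peaks outside the gene were 6.72 kb upstream (CTCF fold 10.9) and 40.2 kb downstream (6.60), and the strongest Lone CTCF peak, with a fold of 5.63, was again intronic.

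Jak2 encodes the tyrosine kinase bound to the receptor and lies on chr19:29326318-29387570, plus strand. It had the fewest cohesin-only peaks relative to shared peaks, 1 to 9. The single CNC peak, at 29359874-29360283 in an intron, had a fold of 5.01. A shared peak lay over the start site with a Rad21 fold of 4.75 and a CTCF fold of 8.59, and another 2133 bp inside the gene had folds of 8.33 and 14.1. The strongest shared peak was 103904 bp downstream of the start, in an intron of 5033414D02Rik, with a Rad21 fold of 19.5. CTCF alone was found at 7 sites, the strongest with a fold of 6.05 in an exon of Insl6.

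Stat5a and Stat5b encode the 2 closely related STAT5 proteins and adjoin each other on chr11:100642045-100746483. More CNC peaks lay in Stat5b than in Stat5a, which was not set against the lengths of the 2 genes. Of 10 CNC peaks, 6 were in introns of Stat5b, 1 was in an exon of Stat5a, 2 were in exons of the neighbour Stat3 and 1 was in an exon of Kcnh4. The Stat5a peak, at 100720576-100721132 and 94 bp downstream of a start site, was the strongest, with a fold of 4.13 and a −log10 q of 20.7. A shared peak of Rad21 fold 7.17 and CTCF fold 13.1 stood beside it, at 100721542-100722263. Stat5b had a CNC peak of 2.70 and a shared peak of Rad21 fold 5.76 within 1 kb of the same start site, and a shared peak of 6.31, at 100711425-100712826, near its other start site. Here CNC peaks kept close to CTCF, and 7 of the 10 were within 1 kb of a CTCF peak. The strongest shared peak, in an exon of Stat3 8.43 kb beyond Stat5a, had a Rad21 fold of 21.8 and a CTCF fold of 26.1, and the strongest Lone CTCF peak, in an intron of Stat5b, had a fold of 3.93.

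Bcl6 encodes a zinc finger repressor that binds many of the same DNA sites as STAT5, and lies on chr16:23965138-23988938, minus strand. Like Cish, it had no Rad21 peak of either class within 1 kb of its start. The nearest shared peak was 2483 bp upstream, with a Rad21 fold of 9.58 and a CTCF fold of 16.5. Of its 5 CNC peaks, 1 was inside the gene, in an exon at 23972226-23972691 with a fold of 3.72. The strongest, at 24034520-24034942 and 45854 bp upstream, had a fold of 4.85. Strong shared peaks stood beyond the 3′ end, at 23962478-23962902 with a Rad21 fold of 13.54 and at 23953718-23954234 with 21.8. Its 1 Lone CTCF peak, in an intron, had a fold of 4.30.

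Cux2 encodes a homeodomain repressor that is more highly expressed in female than in male liver, and lies on chr5:122308396-122500111, minus strand. Shared peaks were prominent, 18 against 11 CNC peaks. The most upstream start site carried a shared peak with a Rad21 fold of 14.7 and a CTCF fold of 26.9, the highest CTCF fold in any of the 9 spans, and the strongest shared peak by Rad21, 39003 bp upstream at 122538837-122539368, had a fold of 24.4. Of the CNC peaks, 10 were in introns of the gene. The strongest, at 122367695-122367964, had a fold of 4.30 and lay 3539 bp downstream of an internal start site. A peak of 3.802 at 122450304-122450795, which holds the TTCNNNGAA match printed above, lay 1744 bp downstream of another. A run of 4 CNC peaks occupied 1.89 kb, from 122476214 to 122478107, with folds of 3.58, 2.85, 2.50 and 3.26. This run and the run at Ghr were picked out after their values were seen. The nearest shared peak beyond the 3′ end was weak, with a CTCF fold of 2.48, while the strongest Lone CTCF peak of all the spans, with a fold of 9.18, lay upstream at 122529819-122530175.

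**Figure D4:**
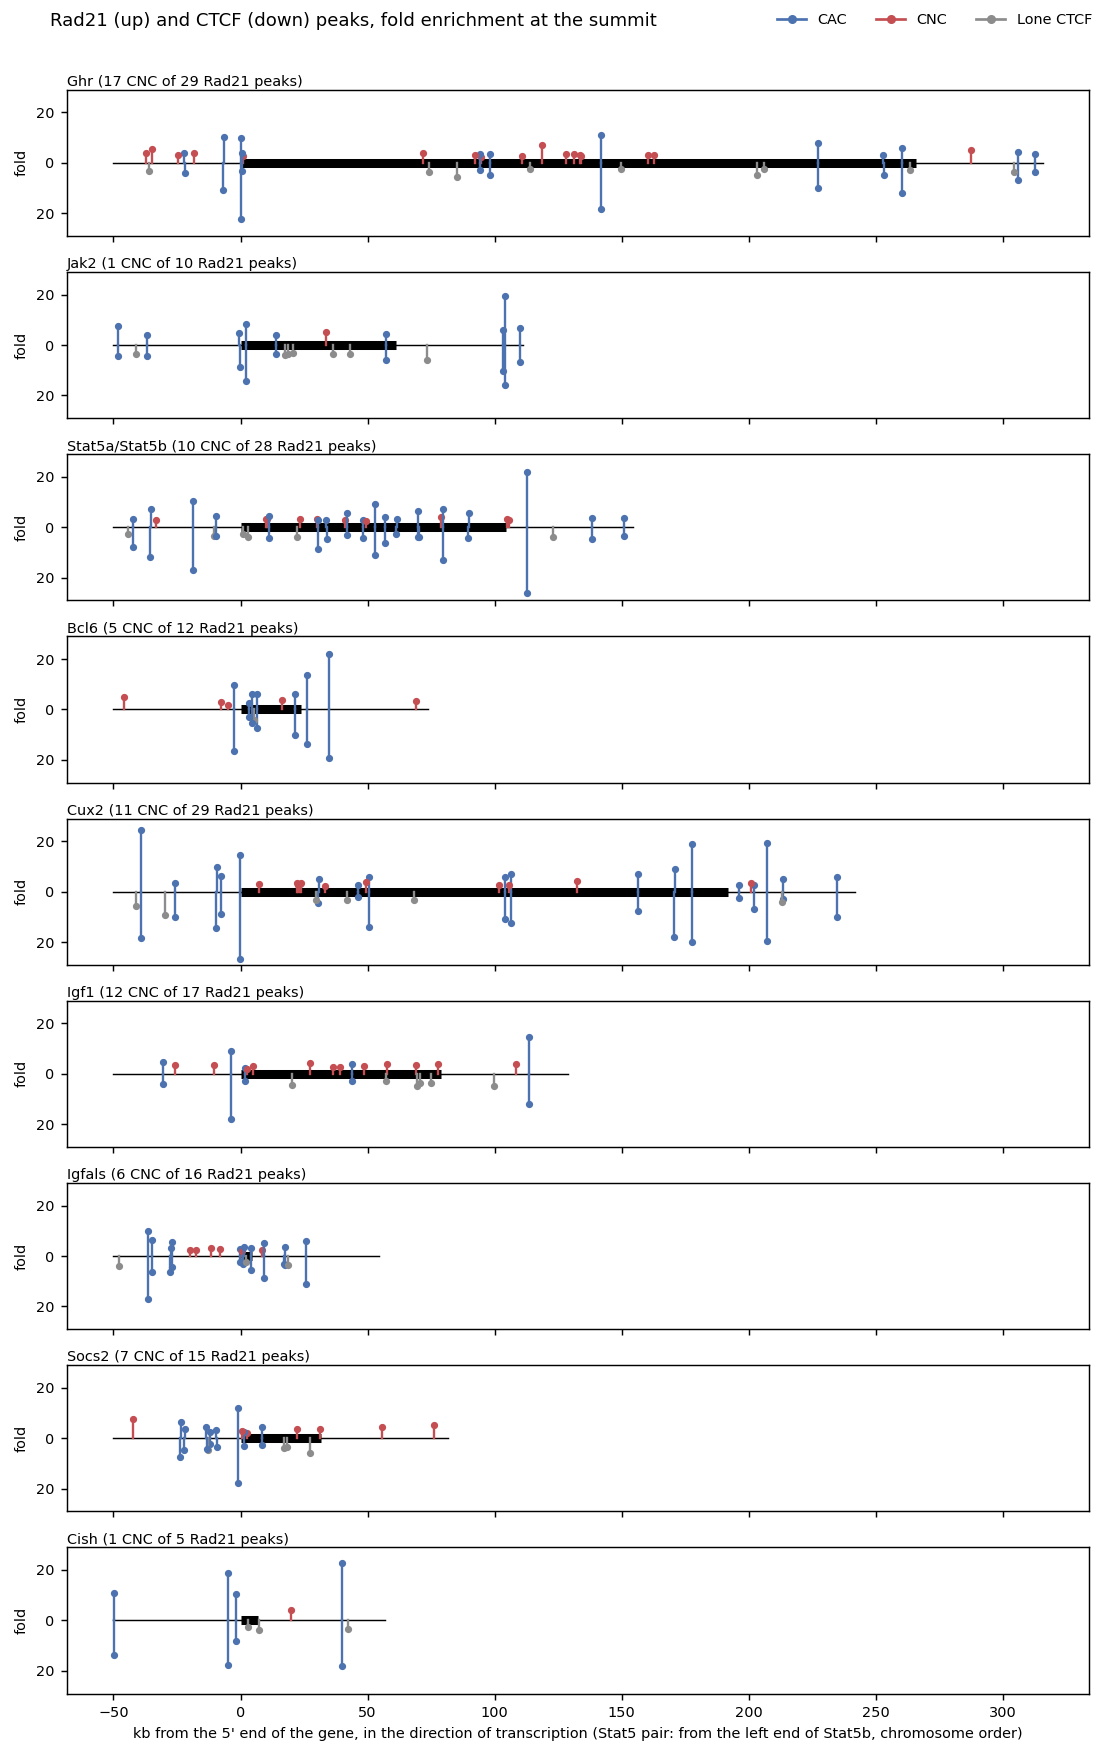
Map of the 9 spans, with kb from the 5′ end of the gene on the x axis (for the Stat5 pair, from the left end of Stat5b) and the gene as a thick black bar. Lines rise to the Rad21 fold enrichment and fall to the CTCF fold enrichment of each peak (shared CAC blue, CNC red, Lone CTCF grey), and red lines are most numerous inside Ghr (12), Cux2 (10) and Igf1 (9), while the strongest shared Rad21 peak stands outside the gene in every span but Ghr.

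Igf1 encodes insulin-like growth factor 1, the main secreted product of growth hormone action on the liver, and lies on chr10:87321010-87399792, plus strand, with no other protein-coding gene in its span. It combined few shared peaks with many cohesin-only peaks. Only 5 Rad21 peaks were shared, of which 2 stood on either side of the gene with a CTCF motif, at 3.69 kb upstream with a CTCF fold of 18.1 and at 34.7 kb downstream with 12.1. The motifs of these peaks faced each other across 116.747 kb, and 10 of the 12 CNC peaks lay between them, 9 of them inside the gene. The 12 CNC peaks of the span were of moderate strength, with a median fold of 3.40 and a range of 1.95 to 4.10. The strongest, at 87347805-87348851, was 1047 bp wide and intronic, and an intronic peak of 3.87 at 87378437-87378922 and an exonic peak of 3.79 at 87398560-87398771 came next. Around an internal start site both a CNC peak of 1.95 and a shared peak of Rad21 fold 2.32 and CTCF fold 2.67 were present, both weak. The strongest Lone CTCF peak, 4.95 in fold, lay downstream of the gene.

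Igfals encodes the acid labile subunit, which carries IGF1 in blood as part of a complex with a binding protein, and is a short gene on chr17:25014600-25018955, plus strand. Its span held 9 other protein-coding genes, so that a peak there need not belong to Igfals. Of the 6 CNC peaks 1 was in the gene, at 25014834-25015255 and 212 bp upstream of a start site, with a fold of 2.18. The strongest, at 25002853-25003200 and 11554 bp upstream, had a fold of 3.03, the lowest maximum of any span. Shared peaks flanked the start with Rad21 folds up to 3.52. The strongest shared peak lay in an intron of Hagh, with a Rad21 fold of 10.04, and the strongest Lone CTCF peak, in an intron of 4930528F23Rik, had a fold of 4.12.

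Socs2 encodes a suppressor of cytokine signalling that acts on the growth hormone receptor, and lies on chr10:94847996-94879814, minus strand, again with no other protein-coding gene in its span. It held the strongest CNC peak of all 9 spans. This peak, at 94922078-94922409 and 42431 bp upstream, had a fold of 7.46 and a −log10 q of 24.0, above 99.04% of autosomal CNC peaks, and its nearest CTCF peak was 16158 bp away. A peak of 5.31 at 94803484-94803773 lay downstream. Inside the gene were 4 CNC peaks, among them those of 3.56 at 94857488-94857702 and 3.53 at 94848420-94848762. The start region was bound in both ways, with CNC peaks of 2.82 and 2.08 and with a shared peak of Rad21 fold 11.8 and CTCF fold 17.8 at 94880454-94880953. The strongest Lone CTCF peak, in an intron, had a fold of 5.98.

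Cish encodes a STAT5-induced inhibitor of cytokine signalling and lies on chr9:107198357-107205115, plus strand. Its span was the sparsest, with 5 Rad21 peaks, of which 4 were shared and strong. Their Rad21 folds ran from 10.5 to 22.6, with a median of 14.9, the highest of any span, and the weakest of them, 1595 bp upstream of a start site, was also the nearest. The strongest, at 107238156-107238680, lay in an exon of Hemk1. The single CNC peak, at 107218090-107218331 and 16778 bp from a start site, had a fold of 4.31. At the start itself there was no Rad21 peak, and a Lone CTCF peak had a fold of 2.45, while the strongest Lone CTCF peak, just beyond the gene, had 3.89.

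Across the 10 genes, 8 had a Rad21 peak within 1 kb of an annotated start site, all but Bcl6 and Cish, against 52.2% of autosomal protein-coding genes. The same 8 genes had a shared peak there, against 48.2%. Cohesin-only peaks at a start were found for 6 genes, Ghr, Stat5a, Stat5b, Igf1, Igfals and Socs2, against 10.4% of all genes. These peaks were mostly weak, with the Stat5a peak of 4.13 the strongest, and each of these genes also had a shared peak there. In these 6 genes the CNC peak nearest a start was 142 bp (Igfals) to 634 bp (Socs2) from the nearest CTCF peak. The genes had between 1 and 9 annotated start sites each, which was not matched in the comparison.

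CNC peaks lay mainly in introns, as Lone CTCF peaks did. Of the 70 CNC peaks 42 were in introns (60%, against 49.8% of autosomal CNC peaks), 11 in exons (15.7%, against 7.89%) and 17 between genes (24.3%, against 42.3%), where the autosomal shares include regions far from any gene. Of the shared Rad21 peaks 44.0% were in introns (against 41.1% on all autosomes) and 24.2% in exons (against 15.04%). Of the Lone CTCF peaks 57.8% were in introns (against 53.6%) and 24.4% in exons (against 8.68%). A share in exons above the autosomal share was thus found in each class and not in CNC peaks alone. In the body of a member gene lay 45 CNC peaks (64.3%), 40 of the 91 shared Rad21 peaks (44.0%) and 29 of the 45 Lone CTCF peaks (64.4%). The bodies made up 46.1% of the length of the spans, and the long genes Ghr and Cux2 held 22 of the 45 CNC peaks. Within 1 kb of any coding start were 9 CNC peaks (12.9%) and 23 shared peaks (25.3%), near the 12.6% and 24.3% of all autosomes, and 7 Lone CTCF peaks (15.6%). Many CNC peaks had company. Another CNC summit was within 10 kb of 50 of the 70 (71.4%, 59.9 to 80.7%), against 43.7% of all autosomal CNC peaks, and within 2 kb of 10 (14.3%, 7.95 to 24.3%), against 16.9%. Neither share was matched for the density of CNC peaks, which in 7 of the 9 spans was above the 75th percentile of genes. From the nearest CTCF peak 19 CNC peaks were less than 1 kb away (27.1%, against 23.3% on all autosomes) and 12 were more than 10 kb away (17.1%, against 30.4%). Of these distant peaks 5 were at Ghr and 3 at Socs2.

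The CTCF motif was more frequent in shared than in cohesin-only peaks. It was called within 150 bp of the summit, on either strand, in 34 of the 91 shared Rad21 peaks (37.4%, 28.1 to 47.6%) and in 2 of the 70 CNC peaks (2.86%, 0.787 to 9.83%). The classes were set by overlap with CTCF peaks, and the matrix was learned from strong peaks of the CTCF list. A difference in this direction was therefore built in. The shares for all shared and CNC peaks on the same chromosomes were 36.1% and 1.90%, and windows without a peak reached 1.001% by the choice of threshold. Lone CTCF peaks of the spans carried the motif in 7 of 45 (15.6%, 7.75 to 28.8%), below the 35.3% of all Lone CTCF peaks on these chromosomes. They also included fewer strong peaks, with 11.1% at a fold of at least 5, against 25.1% on all autosomes, and 35.6% at a −log10 q of at least 10, against 45.9%, and the part of strength in the motif share was not tested.

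In 5 of the 9 spans the nearest motif-bearing shared peaks on either side of the gene faced each other, against 28.0% of the protein-coding genes on these chromosomes. These were Jak2, Bcl6, Igf1, Socs2 and Cish. The 9 spans are too few to tell this count apart from the share of all genes. At Jak2 and Igf1 both peaks lay within the span, whereas at Bcl6, Socs2 and Cish the farther peak was 834, 167 and 325 kb from the gene. At Ghr, Stat5a-Stat5b and Cux2 the motifs pointed away from each other, and at Igfals they lay on the same strand.

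TTCNNNGAA was not clearly more frequent at the cohesin-only peaks. It occurred within 150 bp of the summit in 10 of the 70 CNC peaks (14.3%, 7.95 to 24.3%), against 9.61% of all autosomal CNC peaks, and in 9 of the 91 shared Rad21 peaks (9.89%, 5.29 to 17.7%), against 8.16%. Windows of the same length without a peak held it in 9.04%, which lies within both intervals. The 10 peaks were spread over 6 spans, with 3 at Igfals, 2 each at Ghr and Igf1, and 1 each at Bcl6, Cux2 and Socs2. At Igf1 and Socs2 a match lay within 10 bp of the summit, as printed above, while the matches printed for Cux2 and Igfals were 120 bp or more from it. Within 100 bp of the summit the shares were 7.14% of the CNC peaks (3.09 to 15.7%), against 6.41% of all autosomal CNC peaks, and 2.198% of the shared peaks (0.605 to 7.66%), against 5.27%, with 6.08% of the windows without a peak. Lone CTCF peaks held the motif in 8 of 45 (17.8%, 9.29 to 31.3%), against 8.13% on all autosomes.

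Other motifs of liver factors differed little from their autosomal shares. The C/EBP-type motif TTGCNNAA was found in 14 CNC peaks (20%, against 18.4% of autosomal CNC peaks) and 14 shared peaks (15.4%, against 12.1%). The FOXA-type motif TGTTTAC was found in 7 CNC peaks (10%, against 7.06%) and 5 shared peaks (5.49%, against 4.11%). The HNF6/CUX2-type motif ATCGAT was found in 3 CNC peaks (4.29%, against 2.17%) and 1 shared peak (1.10%, against 1.14%), and the HNF4-type motif CAAAGTCCA in 1 CNC peak (1.43%, against 2.04%) and 0 of 91 shared peaks (upper Wilson bound 4.05%), against 0.873%. Each autosomal share of CNC peaks lay within the interval of the member share. Both strands were searched, and matches could overlap one another.

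**Figure D5:**
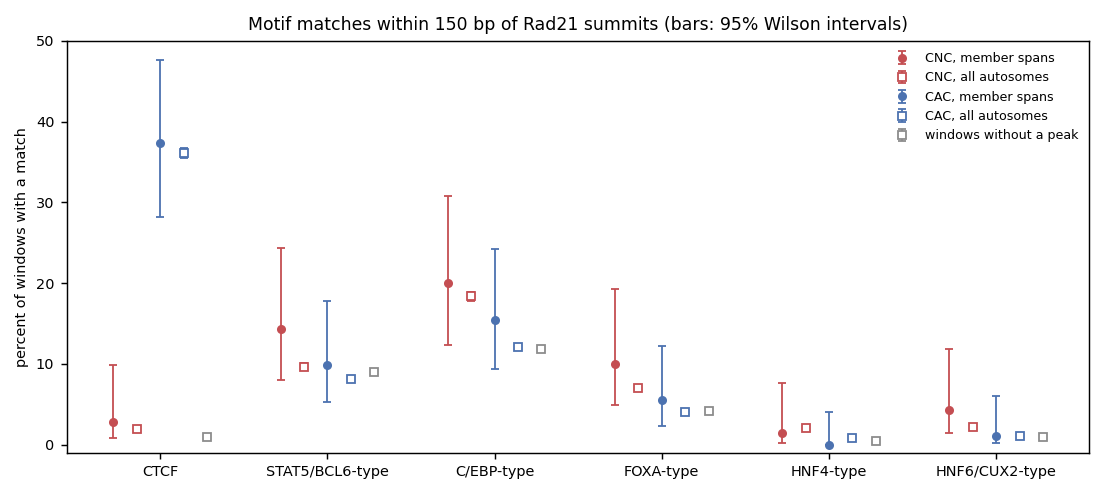
Percent of windows reaching 150 bp to either side of Rad21 summits that hold a match to each motif (y), by motif (x), for member spans (filled circles) and all autosomes (open squares, CTCF on the chromosomes with members only), with CNC in red, CAC in blue and windows without a peak in grey; bars are 95% Wilson intervals. The CTCF motif is at 37.4% in shared and 2.86% in cohesin-only peaks of the member spans, and the other motifs of cohesin-only peaks have intervals that include the autosomal share.

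Other genes of growth hormone and IGF signalling were less rich in cohesin-only peaks. In the spans of 30 further genes, of receptors, kinases, adaptors, phosphatases, inhibitors and IGF binding proteins, 106 of 377 Rad21 peaks were CNC (28.1%, 23.8 to 32.9%), near the 26.6% of all autosomal peaks and with an interval below that of the members. Their median was 2.14 CNC peaks per 100 kb, and 25 of the 30 were above the all-gene median of 0.752. Irs2, an adaptor of the insulin and IGF1 receptors, had 7.41 per 100 kb, Gadd45g, a stress-response gene, had 6.88, and Onecut1, which encodes the liver factor HNF6, had 4.69. Socs7, Socs1, Ptpn11 and Gab1 had none. CNC peaks stood at a start site of 7 of the 30 genes and shared peaks at a start site of 24. The span of Stat3, also among the 30, overlaps that of Stat5a-Stat5b and shares peaks with it.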

How the data were processed

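CTCF and Rad21 ChIP-seq peaks of female liver were analysed as deposited. Per the labels and the methods of the study, the authors aligned reads with Bowtie2 on build mm9, pooled the 4 CTCF and the 3 Rad21 libraries, and called peaks with MACS2, after which blacklisted regions were removed. For each peak the authors deposited a score, the fold enrichment at the summit (a ratio), −log10 p, −log10 q and the offset of the summit, another value in bp. Read depth per library is not in the lists, 0 per-sample columns were left unused, and a deeper pool gives more peaks.

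Gene spans used the GENCODE vM1 annotation of the same build, whose chromosome lengths were compared with the peaks. Start sites were those of protein-coding transcripts. The 20 bp CTCF matrix was learned from 1000 strong CTCF peaks on chromosomes without members and called at 14.7 bits, reached in 1% of 97420 windows without a peak. Peaks in a span were named by place (starts, flanks) or strength (the strongest of each class, and CNC peaks in the gene or within 10 kb of its start at or above the autosomal CNC median, at most 4). Members, lists and motifs were chosen with earlier results of these data known. No test was run. Intervals are 95% Wilson intervals and cover counting error only, and neighbouring peaks are not independent. Alternatives were a −log10 q of 10, a fold of 5, 50% overlap, summits within 100 bp, spans of 25 and 100 kb, a 100 bp motif window, a 5% background rate, and start sites within 500 bp. Steps were tested on simulated data. Python 3.11.15, numpy 2.4.6, pandas 2.3.3, pysam 0.24.0 and matplotlib 3.10.9 were used.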

Additional observations from a re-analysis of the deposited data

How the results depend on the processing

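No paired analysis was possible because peaks were called on pooled libraries, and for the same reason no replicate could be left out. With spans of 25 kb and with 50% overlap all 10 values recomputed under each moved little. A −log10 q of at least 10 left 21 CNC and 27 Lone CTCF peaks, a CNC share of 25% and median Rad21 folds of 4.57 for CNC and 6.72 for CAC peaks. A fold of at least 5 left 11 CNC, 44 CAC and 15 Lone CTCF peaks, a CNC share of 20%, median folds of 5.67 and 9.22, and 5 genes with a Rad21 peak at a start. The CTCF motif was then called in 61.4% of CAC peaks of the CTCF list (37.6% without this rule) and in 9.09% of the 11 CNC peaks (2.86%). These rules filter both lists, so that a Rad21 peak whose weak CTCF partner was removed became CNC. Classing by summits within 100 bp raised the CNC share to 52.8% (39.4% on all autosomes), and spans of 100 kb held 141 CAC peaks. A 5% background rate gave a CTCF motif in 55.9% of CAC peaks of the CTCF list and in 7.14% of CNC peaks (2.86% without this rule). A 100 bp window gave TTCNNNGAA in 7.14% of CNC and 2.198% of CAC peaks. At a −log10 q of 10 and at a fold of 5 the autosomal CNC shares, 19.5% and 16.3%, lay within the intervals of the member shares. A higher CNC share of the members was thus not detected at these limits, and the part of the smaller number of peaks was not tested. Depth limits what can be called absent: a start or intron without a peak may lie under the threshold of the pooled list.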

Other observations

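Peaks of equal fold enrichment differed in −log10 q between genes and within them. Each peak was ranked by −log10 q among the 1000 autosomal peaks of the same list with the nearest fold. In the CTCF list the median rank was at a percentile of 96.6 over the 8 peaks of the Bcl6 span and 90.25 over the 14 of the Igfals span, but 25.5 over the 11 of the Igf1 span. In the Rad21 list the medians were 90.05 for the 16 Igfals peaks and 96.3 for the 5 Cish peaks, against 49.7 for the 17 Igf1 and 50.9 for the 29 Ghr peaks. Percentiles within a span ranged from 15.2 to 99.7 at Bcl6 in the CTCF list. In the Rad21 list they ranged from 2.1 to 99.8 at Cish, 1.7 to 97.6 at Ghr and 65.9 to 99.4 at Igfals. By construction of these measures, a higher −log10 q at the same fold means that more reads stood both at the summit and in the local background.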
